A study of Gallus gallus with 24 samples.

Results

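Goggled and open eyes of the same chicks were compared to find the genes that differed in the same direction after a short and after a long period of goggle wear, as against those that differed at 1 time only. All 24 arrays of the study entered, as 12 differences of goggled minus open eye, 6 at 6 h and 6 at 3 d, each between arrays of equal replicate number. The chicks were white Leghorns, kept under 12 h of light per day. At 1 week of age, under ether and at the start of the light phase, a translucent white plastic goggle was glued over 1 eye, on the left and on the right in turn, and the fellow eye was left uncovered. The arrays hold retina with its pigment epithelium from both eyes of 6 chicks after 6 h and of 6 others after 3 d, so each of the 4 combinations of eye and time has 6 arrays. The control is thus the fellow eye of the same chick. No eye of an ungoggled chick entered.

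A translucent goggle lets light through but removes the detail of the image, and a growing eye deprived of detail elongates and becomes myopic. In the chick this control of eye growth works largely within the eye. The retina reads the image, the pigment epithelium lies between the retina and the choroid, and the choroid and sclera set the length of the eye. Amacrine cells, which are mostly inhibitory neurons of the inner retina, release dopamine and several peptides, among them vasoactive intestinal peptide and glucagon, which have been studied as carriers of the growth signal in birds.

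Signals were linear fluorescence intensities per probe set, and a level is given here as that signal. A difference is that of log2(signal + 16), goggled minus open, and 26907 of 38439 probe sets passed the filter on dim ones and were tested. Probe sets of reporter sequences that match no chicken gene set the background, a signal of 22.8. The arrays held the labelled tissue: the mean log2 level of the marker lists lay between 8.77 and 9.13 for amacrine cells and between 8.00 and 8.98 for pigment epithelium, and RPE65, the isomerase of the visual cycle, had a mean signal of 3525. Tissue from outside the retina was also present in unequal amounts. Choroid, sclera and vessel markers (29 of 37 tested) ranged from 5.92 to 7.24 on the log2 scale in open and from 5.93 to 6.73 in goggled eyes at 6 h, and from 5.80 to 7.34 and 5.80 to 7.80 at 3 d. The highest arrays were open eye 5 at 6 h and, at 3 d, open eye 2 and goggled eye 3. Striated muscle markers (10 of 23 tested) were highest in goggled eye 6 at 6 h, at 7.88 against a group median of 6.64. The median signal of an array was 40.4 ± 3.41 in open against 39.7 ± 3.04 in goggled eyes at 6 h, then 35.6 ± 2.68 against 32.6 ± 2.24 at 3 d (SD, n = 6 each), and its part in the differences was not tested. The ratio of 3' to 5' actin signal, a measure of RNA quality, was 3.46 ± 0.88 in open against 3.66 ± 0.64 in goggled eyes at 6 h. At 3 d it was 3.69 ± 0.22 against 3.85 ± 0.61, and its part in the differences was not tested. In whole tissue, fewer cells of a type and less RNA per cell cannot be told apart, and precision is limited by having 6 arrays per group.

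Of 26907 probe sets, 3 passed an adjusted p of 0.05 for the goggle effect shared by both times in limma with Benjamini-Hochberg adjustment, which is 0.0111% of those tested. All 3 fell: VIP, UTS2B and BMP2, a neuropeptide, a vasoactive peptide and a secreted growth factor. In all, 2599 had an unadjusted p under 0.05. At 3 d alone 2 passed (0.00743% of those tested), VIP and UTS2B, with 2395 at an unadjusted p under 0.05. At 6 h alone limma called none (0%), with 1233 at an unadjusted p under 0.05, and 0 without the block or with a random one. With the chick as a random block in place of a fixed one, 11 probe sets passed for the shared effect, 9 of them lower. Beside the 3 above these were BDNF, CCN2, LBH, DUSP4, SHC4, KIAA1671, TH and a probe set with no gene name.

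VIP encodes vasoactive intestinal peptide, a transmitter of a class of amacrine cells. At 6 h its signal in open eyes was 285 at the lowest, 445 at the median and 693 at the highest, against 216, 293 and 335 in goggled eyes. At 3 d the open eyes gave 361, 463 and 539 and the goggled eyes 187, 239 and 266. The goggled eye was the lower one in every chick, and at 3 d every goggled eye lay below every open eye, while at 6 h the groups overlapped because open eye 6 was low. Over both times VIP fell by 0.79 in log2 units (SE 0.0654, 12 of 12 chicks lower, limma adjusted p = 2.25e-04). The mean difference was -0.63 at 6 h and -0.95 at 3 d, and the chicks ranged from -1.10 to -0.38 and from -1.13 to -0.76. The change from 6 h to 3 d, -0.32, did not pass in limma. VIP passed under all 24 alternatives tried, with adjusted p from 5.58e-07 to 0.0224.

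UTS2B encodes a peptide related to urotensin 2, a vasoactive hormone first found in fish. In open eyes its signal ran from 98.7 through a median of 113.6 to 146 at 6 h, and in goggled eyes from 61.0 through 77.25 to 89.6. At 3 d it ran from 90.1 through 122.5 to 149.5 in open eyes and from 51.9 through 64.8 to 68.5 in goggled eyes. The groups did not overlap at either time, whereas they overlapped at 1 or both times for VIP, BMP2 and the other genes that passed with the random block. UTS2B fell by 0.66 in log2 units (SE 0.0713, 12 of 12 chicks lower, limma adjusted p = 0.00348), with means of -0.52 at 6 h and -0.79 at 3 d. The weakest of the 12 differences was -0.17, in chick 6 at 6 h, and the strongest was -1.04, in chick 3 at 3 d. Its adjusted p stayed between 1.36e-05 and 0.0375 over the 24 alternatives.

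BMP2, a bone morphogenetic protein, had the largest shared difference of all tested probe sets. Its signal at 6 h was 227, 289 and 443 (lowest, median and highest) in open eyes and 83.9, 108 and 189.6 in goggled eyes. At 3 d it was 192, 326 and 353.5 in open eyes and 40.9, 89.1 and 401 in goggled eyes. The groups were apart at 6 h. At 3 d a single array, goggled eye 3, lay above all open eyes, and the other goggled eyes lay below them all. BMP2 fell by 1.25 over both times (SE 0.175, 11 of 12 chicks lower, limma adjusted p = 0.041), with nearly equal means of -1.22 at 6 h and -1.29 at 3 d.

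The call of BMP2 was less firm than those of VIP and UTS2B. It was kept in 10 of 24 alternatives, over which the adjusted p ran from 6.5e-04 to 0.334. When both eyes of a chick were left out in turn, it passed without 3 d chick 1 (0.022) and without 3 d chick 3 (0.00145), and missed without any of the others (0.0525 to 0.169). A second BMP2 probe set, with a mean signal of 17.3, below the background, differed by -0.21 and was lower in 8 of 12 chicks.

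CCN2 encodes a matrix-associated growth factor also known as connective tissue growth factor, an immediate early gene in many cells, and its values ran beside those of BMP2. Its signal at 6 h was 345, 510 and 826 in open eyes and 171.5, 245 and 485 in goggled eyes, and at 3 d 324, 484 and 609 against 131, 184 and 682. The groups overlapped at both times, at 3 d through goggled eye 3. The shared difference was -0.98 (SE 0.152, 11 of 12 chicks lower, limma adjusted p = 0.0825), with -0.96 at 6 h and -0.99 at 3 d. It passed in 6 of 24 alternatives (adjusted p 0.00332 to 0.421), among them the fit without 3 d chick 3 (0.0071).

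The exception in both genes was the same eye, and that eye was the richest in choroid, sclera and vessel markers. It was also the richest in pigment epithelium markers (8.98) and in blood cell markers (7.36). In 3 d chick 3 the choroid, sclera and vessel markers were higher in the goggled eye by 1.87 on the log2 scale, and BMP2 and CCN2 differed by 0.17 and 0.16. In 3 d chick 2 the same markers differed by -1.54, BMP2 by -1.66 and CCN2 by -1.90, and in 3 d chick 1 by -0.62, -2.60 and -1.92. In 6 h chick 3 the markers were higher by 0.76 while BMP2 differed by -1.57 and CCN2 by -0.79. In the same order of chicks, pigment epithelium markers differed by 0.31, -0.36, -0.39 and -0.05, and blood markers by 1.07, -0.94, -0.34 and -0.02. The part of these tissues in the levels of both genes was not tested. Arrays were matched by replicate number, and that match was weakest in 3 d chicks 2 and 3, as described with the processing. The arrays richest in choroid markers were those of 6 h chick 5 and 3 d chicks 2 and 3. Without these chicks, BMP2 differed by -1.40 (limma adjusted p = 0.0305, lower in all chicks kept). CCN2 then differed by -1.03 (limma adjusted p = 0.0392).

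**Figure D1:**
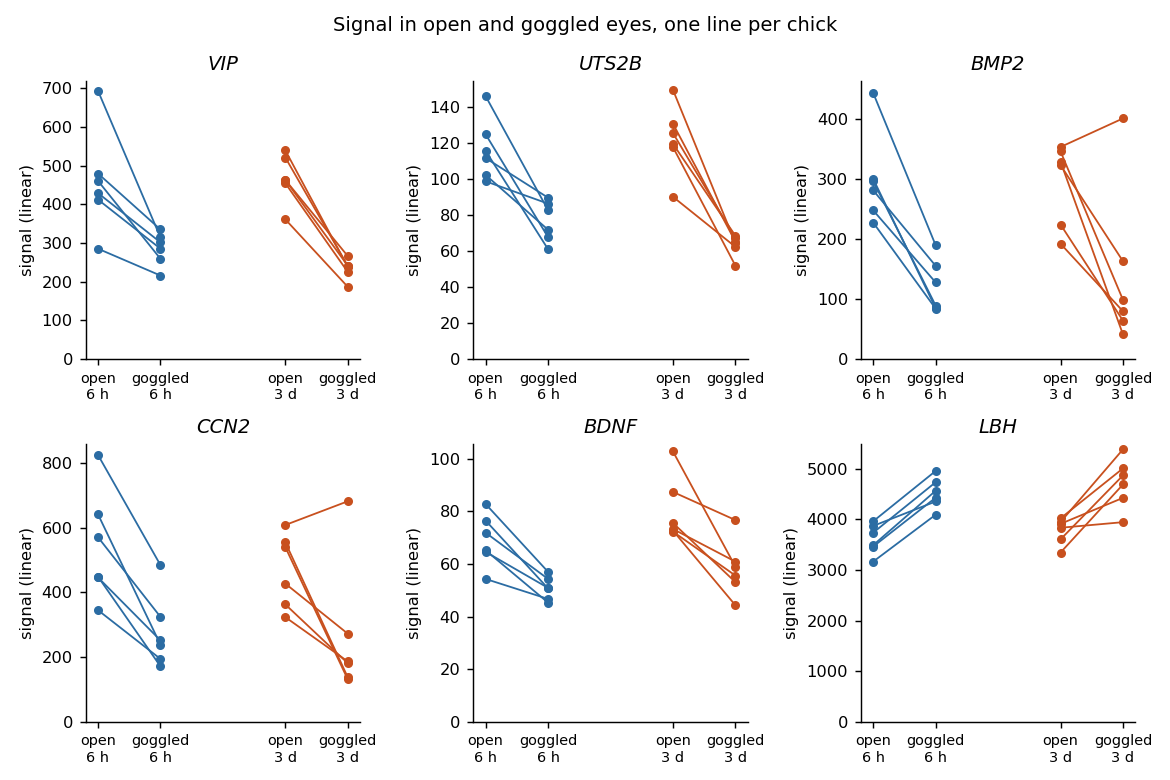
Linear signal (vertical axis) of 6 genes in the open and the goggled eye at 6 h (blue) and 3 d (orange); each line joins the eyes of 1 chick, 6 chicks per time. VIP, UTS2B and BDNF are lower and LBH is higher in the goggled eye of every chick, and BMP2 and CCN2 are lower in all but 3 d chick 3.

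Among the other genes that passed with the random block, BDNF and SHC4 were lower in every chick. BDNF, brain-derived neurotrophic factor, had signals of 54.3, 68.55 and 82.8 in open eyes and 45.3, 50.8 and 57.0 in goggled eyes at 6 h. At 3 d they were 72.3, 74.45 and 103 against 44.3, 57.3 and 76.7. Goggled eyes were low in every pair, but the groups overlapped at both times. The BDNF difference was -0.36 (SE 0.0561, lower in 12 of 12, limma adjusted p = 0.0825) and hardly varied with time, at -0.35 and -0.38. SHC4, an adaptor protein of receptor tyrosine kinases, differed by -0.37 (SE 0.067, lower in 12 of 12, adjusted p = 0.118), from a median of 188 in open to 139 in goggled eyes at 6 h, then 191 against 145 at 3 d. The other SHC4 probe sets, both dimmer, differed by -0.09 and -0.10. The latter had a mean signal of 15.0, below the background, and its sign changed, with -0.43 at 6 h and 0.23 at 3 d.

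DUSP4 was lower in 10 and TH in 11 of 12 chicks. DUSP4, a phosphatase that switches off ERK signalling, had medians of 65.9 in open against 46.0 in goggled eyes at 6 h, then 59.55 against 34.6 at 3 d. Its signal was near the background in the goggled eyes of 3 d chicks 4 and 5 (22.5 and 24.3). It differed by -0.51 (SE 0.089, lower in 10 of 12, limma adjusted p = 0.106) and passed without 3 d chick 1 (0.022; 0.00973 to 0.518 over 23 alternatives), and its second probe set differed by -0.42. TH, the enzyme that limits dopamine synthesis, had signals of 40.3, 52.5 and 63.8 in open eyes and 31.6, 41.6 and 45.6 in goggled eyes at 6 h. At 3 d TH had 43.4, 54.8 and 79.8 against 26.7, 35.0 and 41.9. The groups were apart at 3 d and overlapped at 6 h, where chick 4 was higher by 0.13. TH differed by -0.39 (SE 0.0831, lower in 11 of 12, limma adjusted p = 0.222). Of 12 dopamine genes tested, TH among them, 5 were lower (41.7%, against 53.0% of all genes tested) and 7 higher. Their median was 0.01, and only TH went 1 way in 11 or 12 chicks.

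LBH and KIAA1671 were the higher ones. LBH, a regulator of transcription named after limb bud and heart, was among the brighter probe sets, with signals of 3167, 3615 and 3965 in open and 4094, 4499 and 4959 in goggled eyes at 6 h. At 3 d they were 3346, 3874 and 4022 against 3946, 4781 and 5386. Every goggled eye lay above every open eye at 6 h, and at 3 d goggled eye 6 reached into the open group. LBH differed by 0.32 at 6 h and by 0.32 at 3 d (shared SE 0.0519, higher in 12 of 12, limma adjusted p = 0.0957), and passed in 6 of 24 alternatives (adjusted p 0.0018 to 0.518). KIAA1671 differed by 0.26 (higher in 12 of 12, adjusted p = 0.222), with groups apart at 3 d (505 to 575 in open, 630 to 722 in goggled eyes), while its other 2 probe sets differed by 0.06 and 0.12.

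**Figure D2:**
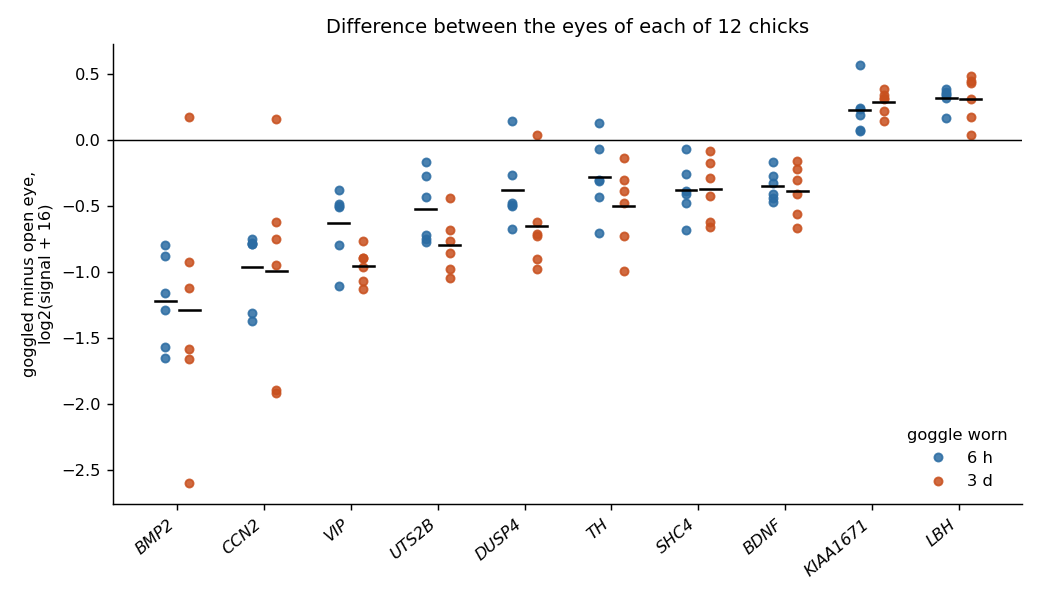
Goggled minus open eye on the log2(signal + 16) scale for each of 12 chicks, for the 10 named genes that passed limma with the chick as a random block (points: chicks, blue 6 h, orange 3 d; bars: mean of 6). The means at 6 h and 3 d lie close together for BMP2, CCN2, SHC4, BDNF and LBH, and further from 0 at 3 d for VIP, UTS2B, DUSP4 and TH.

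By direction alone, without a test, 24 probe sets had their lower signal on the goggled side in all 12 chicks (0.0892% of those tested) and 29 were higher in all 12 (0.108%). Of these, 19 and 28 were above the background, and they stood for 18 and 22 named genes. After centring each array on its median, the counts were 10 lower and 65 higher, so the balance between the directions depends on the scaling. The shared differences of the lower ones had a median of -0.30, that of the higher ones was 0.21, and over all tested probe sets the median size was 0.07. With 1 exception allowed, 258 were lower (0.959%) and 175 higher (0.65%) in 11 or 12 chicks. Opposite directions, 6 of 6 at 6 h one way and 6 of 6 at 3 d the other, were seen in 11 probe sets, against 53 with the same direction.

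Beside VIP, UTS2B, BDNF and SHC4, 8 of the genes lower in 12 of 12 chicks are described here. GCG, or proglucagon, which marks a class of amacrine cells in the chick, had medians of 414 in open against 320.5 in goggled eyes at 6 h, then 451 against 320 at 3 d. All goggled eyes were low relative to their fellow eye and the groups overlapped at both times. GCG differed by -0.37 (SE 0.0728, limma adjusted p = 0.204), and its second probe set by -0.25 (lower in 9 of 12). PDE3A, a phosphodiesterase that breaks down cyclic AMP, differed by -0.32, and by -0.37 at a second probe set. LIPG, or endothelial lipase, differed by -0.26 and LONRF1, a ring finger protein, by -0.24, or -0.26 at its second probe set. ANK2, an ankyrin that ties membrane proteins to the cytoskeleton, differed by -0.27, and its 8 other probe sets were all on the lower side (-0.26 to -0.02). MAP7D3, which binds microtubules, differed by -0.30 (its 5 other probe sets by -0.18 to 0.07). TMEM241 differed by -0.29, but its other probe sets by 0.01 and -0.10 (lower in 5 and 7 of 12 chicks). RMDN3, a protein of contacts between mitochondria and the endoplasmic reticulum, differed by -0.26. None of these passed limma at the settings used here (adjusted p 0.176 to 0.253), but GCG passed with an offset of 64 (0.0378) and with trended and robust variances (0.0345).

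Of the genes higher in 12 of 12 chicks, NTS had the largest difference. NTS encodes the neuropeptide neurotensin, and its signal was 851, 1270.25 and 1618 in open and 1215, 1533 and 1829.8 in goggled eyes at 6 h. At 3 d it was 976, 1234 and 1364 in open and 1501, 1665 and 1839 in goggled eyes. The groups overlapped at 6 h and were apart at 3 d, when every goggled eye was above every open eye. The NTS difference was 0.37 (SE 0.0617, limma adjusted p = 0.099), with 0.30 at 6 h and 0.44 at 3 d, the opposite direction to VIP, UTS2B and GCG. NTS also passed after a stricter filter on dim probe sets (adjusted p = 0.0362) and with trended variances (0.00488), as did RSPH9.

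RSPH9, a protein of ciliary radial spokes, differed by 0.35 (SE 0.0591, limma adjusted p = 0.100), and its dimmer probe sets by 0.04 and 0.15. SOUL, a heme-binding protein first described in chick retina and pineal gland, differed by 0.35. Its differences ran from only 0.0003 in 6 h chick 6 to 1.12 in 6 h chick 3. NUP210, a nuclear pore protein, differed by 0.33. CHST10 and ST6GALNAC5, enzymes that modify glycans, differed by 0.24 and 0.17. FDFT1, the enzyme that commits farnesyl diphosphate to sterol synthesis, and HSPH1, a heat shock protein of the HSP110 family, differed by 0.21 and 0.23. CCNK, a cyclin of transcription, differed by 0.22 and SSFA2 by 0.20. None of these passed limma at the settings used here (adjusted p 0.100 to 0.315), and RSPH9 passed in 5 alternatives (0.0349 to 0.045). Other probe sets of NUP210 differed by 0.04 and 0.10 (higher in 7 and 8 of 12 chicks), and those of CHST10 by -0.01 and 0.16. Those of CCNK differed by 0.14 and, at a signal of 21.1 below the background, -0.12. That of HSPH1 differed by -0.07 at a signal of 19.2, also below it.

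The times have no chicks in common, so a direction found at one time can be followed in the other chicks. Of 459 probe sets lower in 6 of 6 chicks at 6 h, 24 were also lower in 6 of 6 at 3 d (5.23%, against 3.24% of all tested), and 106 in 5 or 6 (23.1%, against 17.1%). Of 404 higher in 6 of 6 at 6 h, 29 were so in 6 of 6 at 3 d (7.18%, against 1.76%), and 93 in 5 or 6 (23.0%, against 10.4%). A further 329 of the lower and 268 of the higher ones went that way in 2 to 4 of 6 chicks at 3 d. The share of all tested probe sets in that range was not counted, so these counts are not read as particular to them. Starting from 3 d, 176 of 871 lower ones (20.2%, against 12.1%) and 111 of 473 higher ones (23.5%, against 9.98%) kept their direction in 5 or 6 chicks at 6 h.

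**Figure D3:**
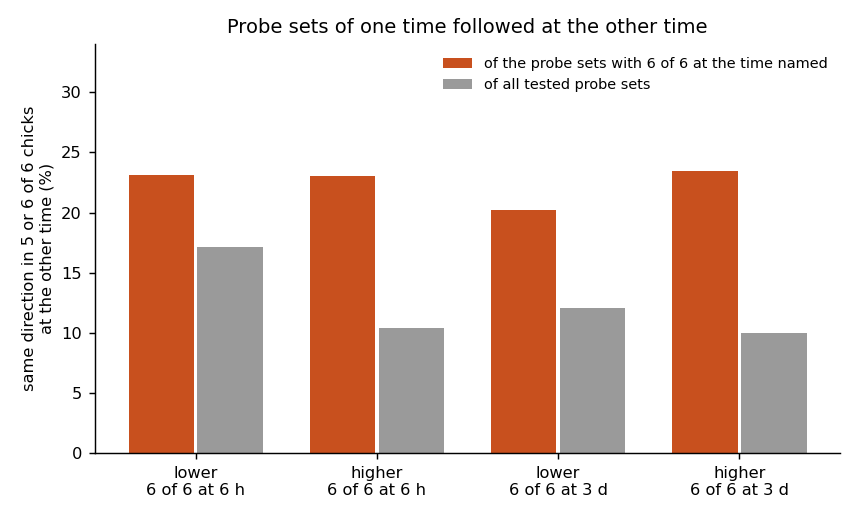
Share in percent of the probe sets with 6 of 6 chicks in 1 direction at the time named below each pair of bars that had the same direction in 5 or 6 of 6 chicks at the other time (orange), beside the same share of all tested probe sets (grey). The shares are 23.1%, 23.0%, 20.2% and 23.5%, against 17.1%, 10.4%, 12.1% and 9.98%.

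Across probe sets, the mean difference at 6 h correlated weakly with that at 3 d (Pearson r = 0.16 over 26907 probe sets, given as a description, since probe sets are not independent and share arrays and scaling within a time). The correlation was larger among brighter probe sets, at 0.367 over 12433 with a mean signal of 100 or more and 0.483 over 1717 with 1000 or more. The share with equal sign rose in the same order, from 58.0% over all to 62.0% and 65.2%. Among the 20 probe sets of smallest p at 6 h, 14 had the same sign at 3 d, 11 of them in 5 or 6 chicks, and limma called 2 at 3 d. Among the 20 of smallest p at 3 d, 14 had the same sign at 6 h, 9 in 5 or 6 chicks, and limma called 0 at 6 h. The median size of those chosen at 6 h was 0.49 there and 0.13 in that direction at 3 d. For those chosen at 3 d it was 0.62 there and 0.09 at 6 h. Because they were chosen by their p at the first time, a smaller size at the other follows from the choice. It does not show a weaker effect at that time. VIP, UTS2B and BMP2 were in both sets of 20.

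**Figure D4:**
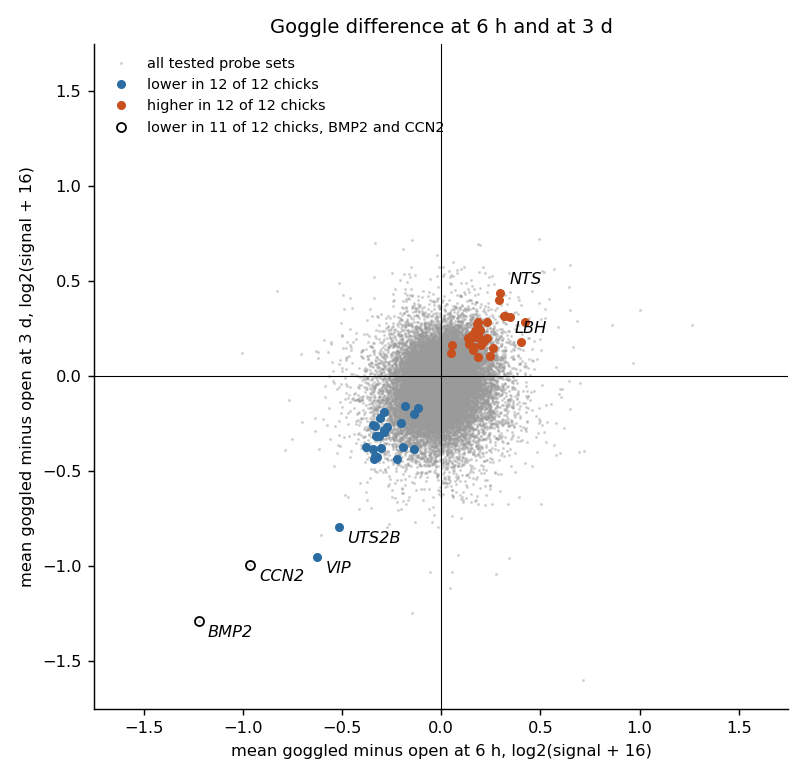
Mean goggled minus open difference at 6 h (horizontal) and at 3 d (vertical), both as log2(signal + 16), for 26907 tested probe sets (grey), with those lower (blue) or higher (orange) in 12 of 12 chicks. VIP and UTS2B lie outside the main cloud at the lower left, as do BMP2 and CCN2 (open circles, lower in 11 of 12), and the others lie within or at the edge of it.

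A direction was taken as seen at 1 time only where it held in 6 of 6 chicks at that time and in 2 to 4 of 6 at the other, a wider condition than 12 of 12. This held for 597 probe sets at 6 h (2.22% of those tested) and 976 at 3 d (3.63%). The test of the difference between the times called none of 26907 (0% at an adjusted p of 0.05 in limma, 1136 at an unadjusted p under 0.05, and 0 in every alternative fit), so no gene is shown to be particular to a time. At 6 h, BRWD1, a chromatin-binding bromodomain protein, ran from 105.5 through 110.45 to 127 in open and from 69.6 through 82.6 to 90.1 in goggled eyes. At 3 d it ran from 122 through 138.5 to 146 and from 93.6 through 144 to 152. The groups were apart at 6 h and overlapped at 3 d, with log2 differences of -0.38 and -0.03. FAAP100, a member of the Fanconi anemia core complex, differed by 0.47 at 6 h, with groups apart (38.0 to 53.5 in open, 57.0 to 77.0 in goggled eyes), and by -0.08 at 3 d.

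The other genes of this kind at 6 h were lower for AFAP1L1 (-0.51, -0.04 at 3 d), PDE10A, a cyclic nucleotide phosphodiesterase (-0.48, -0.21), CYB561D2 (-0.34, 0.05) and SLC25A36, a mitochondrial carrier (-0.29, -0.01). They were higher for WWOX (0.45, 0.01), INCENPL (0.59, -0.09), RNF214 (0.46, 0.09) and YEATS4, a reader of histone acylation (0.44, 0.20). The INCENPL signal was near the background, at 17.8 in open and 32.15 in goggled eyes at the median. At 3 d AFAP1L1 lay below the background, with medians of 22.1 in open and 21.75 in goggled eyes, where small differences are not resolved. None passed limma at 6 h (adjusted p 0.655 to 0.997).

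At 3 d, WWC2, a member of the KIBRA family, ran from 40.7 through 57.2 to 60.9 in open and from 25 through 31.6 to 38.3 in goggled eyes, while at 6 h it ran from 35.6 to 56.1 and from 33.3 to 68.7. Goggled eyes were all below open eyes at 3 d and mixed with them at 6 h, with differences of -0.58 and 0.05. TRAPPC9, a vesicle tethering protein, differed by -0.55 at 3 d and 0.10 at 6 h, and GNL2, a nucleolar GTPase, by -0.47 and -0.06. Both had groups apart at 3 d, with goggled medians of 23.9 and 21.8, near the background. SPIRE1, an actin nucleator, differed by -0.79 at 3 d and -0.27 at 6 h, and passed for the shared effect (-0.53) with a filter at the 50th percentile (0.0362), with trended variances (0.0345) and, at -0.31, with an offset of 64 (0.0372). The higher ones at 3 d were SPARCL1, a matricellular protein of glia and vessels (0.44, -0.06 at 6 h), PDCD7 (0.38, 0.17), SWAP70 (0.36, 0.13), PPP1R21 (0.34, -0.05) and STARD4, a carrier of cholesterol (0.32, 0.04). The second GCG probe set fell into this class (-0.38 at 3 d, -0.11 at 6 h), although the brighter one was lower in all 12 chicks. None passed limma at 3 d (adjusted p 0.115 to 0.345).

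The lists of gene functions were compared by counts, with the brightest probe set of each gene. They were chosen with earlier results of these data known, so their counts are a description and not a test. Over all 11117 genes tested, 114 (1.03%) were lower and 105 (0.944%) higher in 11 or 12 of 12 chicks, and the median shared difference was -0.01. Of the same genes 53.0% were lower and 47.0% higher, and their mean was lower in 9 of 12 goggled eyes. At both times 3496 were lower and 3121 higher, and 1045 had an unadjusted p under 0.05 for the shared effect in limma. The lists are to be read against these values. Of 21 neuropeptide genes tested, 4 were lower in 11 or 12 chicks (VIP, UTS2B, GCG and TAC1, the substance P precursor) and 1 was higher (NTS), and limma called 2. TAC1 differed by -0.12 at a mean signal of 817. In the list 13 genes were lower (61.9%), with a median of -0.08, or -0.03 with centred arrays. Of the rest, CNP3, a C-type natriuretic peptide, differed by -0.72 but was lower in only 8 of 12 chicks, and SCG3, a protein of secretory granules, by 0.23 (higher in 10 of 12). PENK and NPY differed by 0.07 and 0.01.

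Amacrine markers were tested in 26 genes, of which 5 were lower in 11 or 12 chicks: VIP, GCG, TH, TAC1 and GAD2, a GABA-synthesizing enzyme (-0.20, medians of 1179.55 in open against 1087 in goggled eyes at 6 h, then 1281 against 1077 at 3 d). GAD2 groups overlapped at 6 h and were apart at 3 d. Limma called 1 of the 26, VIP. The genes VIP, GCG and TAC1 were already counted among the neuropeptides, so the lists are not separate. The median of the list was -0.02, and it turned to 0.03 with centred arrays, while its mean was lower in 10 of 12 goggled eyes and in 6 of 6 at 3 d (-0.18 to -0.03). Of the 26 genes, 16 were lower (61.5%) and 10 higher. Among them GAD1 (0.03), SLC32A1 (-0.02) and NPY (0.01) lay near 0. Of 21 GABA and glycine genes, 18 were lower and 1, GAD2, in 11 or 12 chicks, with a median of -0.03 that turned to 0.02 with centred arrays, and limma called 0 with either block (7 had an unadjusted p under 0.05). GABBR2, a GABA-B receptor subunit, was higher in 10 of 12 (0.20).

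Of 12 genes of the retinoid visual cycle, which remakes the chromophore of the visual pigments, 11 were lower (91.7%), with a median of -0.11, or -0.06 with centred arrays, but 0 in 11 or 12 chicks and 0 called by limma with either block (3 at an unadjusted p under 0.05). RPE65 differed by -0.19 and was lower in 9 of 12 chicks, RBP4, a retinol carrier, by -0.16 (10 of 12), RGR, a retinal opsin-like protein, by -0.14 (9 of 12) and LRAT, which makes retinyl esters, by -0.35 (8 of 12). Pigment epithelium markers, which share several of these genes, were lower in 15 of 21, with differences of the list mean from -0.39 to 0.31 over the 12 chicks. Of 27 phototransduction genes 19 were lower (70.4%), with a median of -0.08, or -0.03 with centred arrays, but the list mean was lower in only 6 of 12 goggled eyes. SLC24A1, the rod ion exchanger, was lower in 11 chicks (-0.25). THRB, the thyroid hormone receptor of cones, was the only photoreceptor marker of 13 with 11 chicks (-0.19). The part of the pigment epithelium share in these values was not tested.

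Of 36 heat shock and unfolded protein genes, 25 were higher (69.4%) and 22 were higher at both times (3121 of all 11117 genes tested). Their median was 0.05, or 0.04 after quantile normalization and 0.10 with centred arrays. HSPH1 was higher in 12 chicks, and PDIA4, a disulfide isomerase (0.24), and HSPA9, the mitochondrial HSP70 (0.13), in 11. The largest PDIA4 difference, 0.67 in 3 d chick 5, came from signals near the background (12.0 in the open, 28.7 in the goggled eye). In 6 h chick 1 PDIA4 was lower by 0.51. BAG3, a co-chaperone, differed by 0.23 and HSPA5, the chaperone BiP, by 0.14, in 9 and 8 of 12 chicks. The most abundant members, HSPA8 (-0.04) and HSP90AA1 (-0.01), lay near 0. The mean of the list was higher in 10 of 12 goggled eyes, and limma called 0 members with either block (8 had an unadjusted p under 0.05).

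Of 30 genes of cholesterol and fatty acid synthesis, FDFT1 (0.21) was higher in 12 chicks and SQLE, squalene epoxidase, in 11 (0.24, medians of 459 and 553 at 6 h and 449.8 and 552 at 3 d). Both act in the step from farnesyl diphosphate to the sterol ring. DHCR7 (0.22), NSDHL (0.23) and INSIG1, the sterol sensor (0.16), were higher in 9, 9 and 10 chicks, while CYP51A1 (-0.31, at a signal of 23.8 near the background) and ELOVL5 (-0.12) were lower in 10 and 10. The list was split, with 17 higher and 13 lower, and its median was -0.04 at 6 h and 0.06 at 3 d. The list mean was higher in 10 of 12 goggled eyes, and limma called 0 members with either block (8 had an unadjusted p under 0.05).

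Other lists held few members with a shared direction. Of 33 genes of glycolysis and the low oxygen response, 24 were lower (72.7%), and GAPDH (-0.17), LDHB (-0.14) and PFKP (-0.09) in 11 chicks. The list median of -0.05 lay at 0 after rounding with centred arrays. Among bright genes of other lists, SNAP25 of synaptic vesicles and the ribosomal RPS3A were also lower in 11 chicks. The ribosomal RPS15A was higher in 11. Open medians at 6 h were 9316 for GAPDH, 7687 for SNAP25, 8081 for RPS3A and 5527 for RPS15A. The part of brightness was not tested. Of 31 ion channel genes 22 were lower (71.0%), among them the calcium channels CACNA1H (-0.34) and CACNA1C (-0.22) in 11 chicks. In goggled eyes CACNA1H lay below the background in 6 h chick 2 (18.6) and 3 d chicks 4 and 5 (19.5 and 20.8). Of 17 immediate early genes, CCN2 was lower in 11 and SIK1, a kinase induced by cyclic AMP, higher in 12 (0.21), with 8 lower and 9 higher in all. Genes of oxidative phosphorylation had opposite medians, -0.04 at 6 h and 0.09 at 3 d over 43 genes, so this list was not shared. Of 35 BMP and TGF-beta genes BMP2 was the only one with 11 chicks. BMP7, a related ligand, differed by -0.42 and the receptor BMPR2 by -0.27 (each lower in 10 of 12), and ACVR2A, an activin receptor, by 0.15 (higher in 10 of 12). Of 20 ERK feedback genes 0 went 1 way in 11 or 12 chicks.

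Markers of other tissues gave 1 gene with a shared direction, KDR, a VEGF receptor of vessels (0.23, higher in 11 of 12), out of 29 choroid, sclera and vessel markers. TNR, the matrix protein tenascin-R, was higher in 11 (0.36), at a signal of 34.35 in open against 50.65 in goggled eyes at 6 h, then 23.2 against 40.4 at 3 d. Striated muscle markers were higher in 7 of 10 genes with a median of 0.13, and their mean differed between the eyes of a chick by -0.17 to 1.35, with the highest value in 6 h chick 6. No gene of the muscle, blood, ganglion, bipolar, horizontal or Mueller cell lists went 1 way in 11 or 12 chicks.

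**Figure D5:**
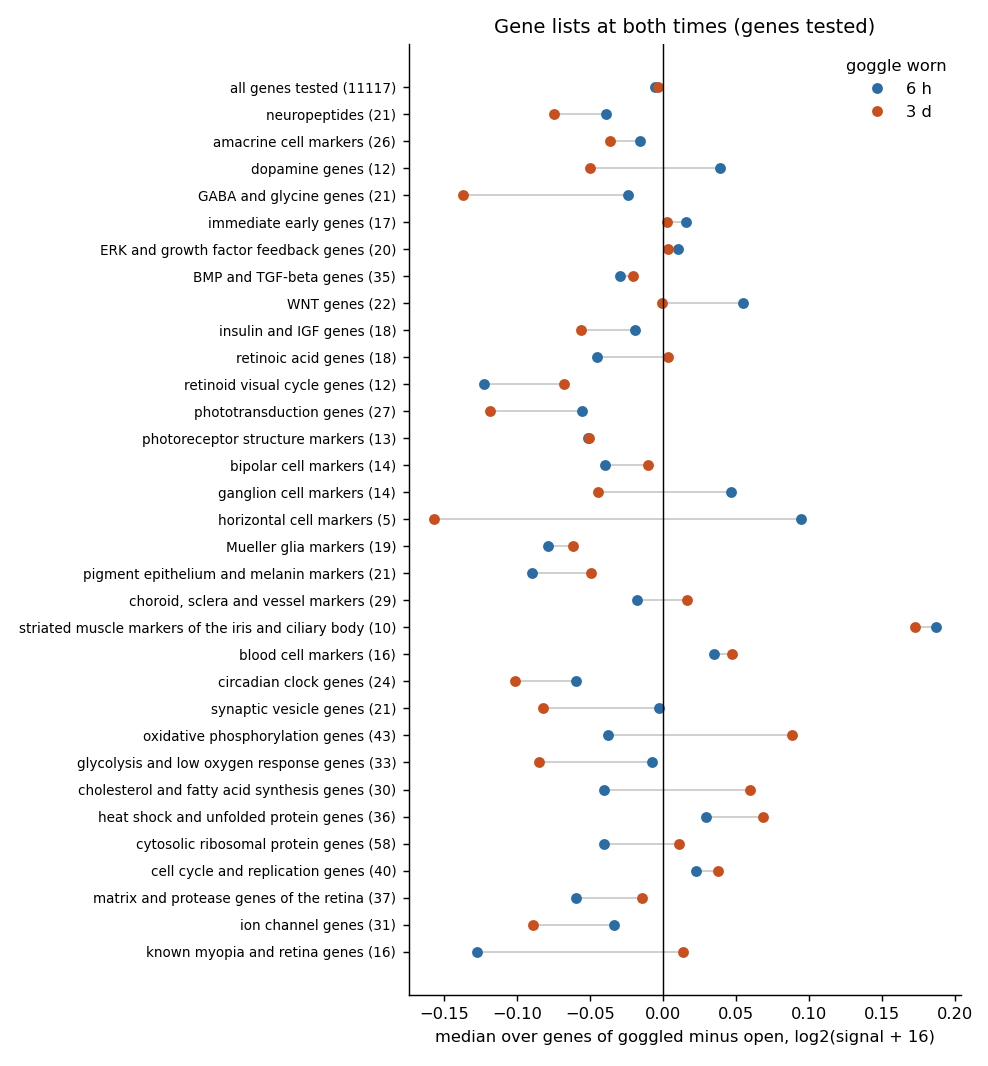
Median goggled minus open difference over the genes of each list on the log2(signal + 16) scale at 6 h (blue) and at 3 d (orange), with the number of genes tested in brackets. Many lists lie below 0 at both times as deposited. They include neuropeptide, GABA and glycine, retinoid cycle, phototransduction, ion channel, circadian clock, Mueller glia and pigment epithelium genes. Those above 0 at both times include striated muscle, which lies furthest out, and heat shock, blood and cell cycle genes. Lists on opposite sides at 6 h and 3 d include oxidative phosphorylation, horizontal cell, cholesterol, ganglion cell and dopamine genes. Centred arrays move all medians up and bring the shared medians of several lists above 0, that of GABA and glycine genes among them.

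Several genes known from work on myopia did not share a direction in all chicks. EGR1, the chick ZENK gene and a marker of active glucagon amacrine cells, had signals of 326, 479 and 966 in open and 192, 376 and 485 in goggled eyes at 6 h. At 3 d EGR1 had 332.5, 395 and 659 against 271, 366 and 636. The groups overlapped at both times, and EGR1 was lower in 5 of 6 chicks at each. Its difference was -0.64 at 6 h and -0.22 at 3 d (shared -0.43, SE 0.146, limma adjusted p = 0.422). The shared differences of DRD4, a dopamine receptor, NOG, a BMP antagonist, CRABP1, a retinoic acid-binding protein, and CRY1, a clock gene, were 0.10, 0.11, 0.13 and 0.05. TGFB2 differed by -0.04, which turned to 0.01 with centred arrays. ALDH1A2, the retinoic acid-making enzyme of the choroid, differed by -2.64 in 6 h chick 5, -2.15 in 3 d chick 2 and 3.60 in 3 d chick 3. In the others it differed by -0.60 to 0.38. The named chicks are those with the arrays richest in choroid markers, but ALDH1A2 is itself in that marker list. EDNRB, an endothelin receptor, ranged from -2.38 in 6 h chick 1 to 2.87 in 6 h chick 5.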

How the data were processed

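Total RNA of each eye (3 µg) was hybridised to 1 Affymetrix chicken genome array and scanned with GCOS 1.4, per the labels. The submitters' processing notes also name RMA, without its role. The deposited intensity values are linear, 1 per probe set and array, and the mean trimmed by 2% is 150.03 on each array, so the deposited values are already scaled. The genome build and how the deposited values were summarised per probe set are not given in the sources used here. Genes were named from GEO's platform annotation, with symbols updated by gene ID through a RefSeq table: of 38439 probe sets left after 96 controls were removed from 38535, 27166 have 1 gene, 177 several and 11096 none. No coordinates, promoters or proteins were used here.

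Probe sets with a mean signal under the 30th percentile (13.4) were left out, and log2(signal + 16) was fitted with limma 3.58.1 (R 4.3.3): 4 groups with the chick, as time and replicate number, as a block (10 residual degrees of freedom), moderated variances, two-sided tests, and Benjamini-Hochberg adjustment over the 26907 tested. Contrasts were the mean of both goggle effects, each effect, and their difference. The labels number the replicates without saying that equal numbers mark 1 chick. Deviations of equal-numbered open and goggled arrays from their group means correlated at 0.229 to 0.424 at 6 h and at 0.102 to 0.445 at 3 d. All were over 0.1, and over all 720 pairings per time the numbered one ranked 1, so they were treated as pairs. Each 6 h open array correlated most with the goggled array of its own number, but only 5 did so among those of 3 d. The exception, 3 d open array 2, correlated at 0.291 with goggled array 3 and at 0.199 with goggled array 2. The lowest value, 0.102, was that of 3 d pair 3, so 3 d pairs 2 and 3 are less sure than the others. P-values set a mean difference against the spread between these samples. The code was tested on simulated data.

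Named were all genes called in the fit with, without or with a random block, the 12 lower and 12 higher with the smallest p among those with 1 direction in 12 of 12 chicks and a signal above background (22.8, the 95th percentile of 57 reporter probe sets), the 5 of smallest p per time and direction seen at 1 time only, the 5 of smallest p for the difference, up to 4 members per list, and genes of a list of known myopia genes. Further list members were chosen after their values were seen. The comparison and the lists were chosen with earlier results of these data known. Alternatives covered the block, filter, offset, scaling, variance model, probe sets per gene and left-out chicks. Python 3.11.15, pandas 2.3.3, numpy 2.4.6 and matplotlib 3.10.9 were used.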

Additional observations from a re-analysis of the deposited data

Results flagged for a closer look

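In 16 of 230 groups of 6 differences (115 named probe sets at both times), 1 chick lay far from the other 5 of its time by Dixon's test at 95%, which chance alone gives in about 1 in 20 groups. Among the genes with a shared direction in 12 of 12 chicks, LBH was higher by 0.17 in 6 h chick 4, against 0.32 to 0.39 in the others, and KIAA1671 by 0.57 in 6 h chick 3, against 0.07 to 0.25. GCG differed by -0.96 in 6 h chick 3, against -0.31 to -0.13, and LIPG by -0.50 in 3 d chick 2, against -0.25 to -0.13. SIK1 was higher by 0.62 in 3 d chick 5, against 0.01 to 0.12. In DUSP4 the value was 0.0369 in 3 d chick 1, against -0.98 to -0.62.

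In SPARCL1 it was 0.20 in 3 d chick 4, against 0.45 to 0.57, and in NDUFAB1, a subunit of respiratory complex I, 0.22 in 6 h chick 3, against 0.01 to 0.09. PFKP had 0.15 in 6 h chick 6, against -0.15 to -0.05, and CDKN1A, a cell cycle inhibitor, -0.16 in 3 d chick 6, against 0.31 to 0.50. TNR had -0.36 in 6 h chick 5, against 0.31 to 0.65, and CACNA1H -0.89 in 6 h chick 2, against -0.27 to 0.09. ALDH1A2 had -2.64 in 6 h chick 5, against -0.32 to 0.38, and CRABP1 -0.28 in 3 d chick 3, against 0.15 to 0.37. Of 2 probe sets with no gene name, 1 had -1.42 in 6 h chick 1, against -0.61 to -0.27, and the other 0.76 in 6 h chick 5, against -0.30 to 0.04.

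In 11 probe sets every chick moved one way at 6 h and the other way at 3 d. Of these, 4 were among the 5 with the smallest p for the difference (3 d minus 6 h). Both choices use the same differences, so an overlap is built in. For none did limma's test pass. LRP3 was higher at 6 h (0.48) and lower at 3 d (-0.40), a difference of -0.88 (adjusted p = 0.68). A probe set with no gene name had 0.29 and -0.32, a difference of -0.62 (adjusted p = 0.82). CENPU had 0.29 and -0.31, a difference of -0.61 (adjusted p = 0.84). PTGR2 had -0.20 and 0.30, a difference of 0.50 (adjusted p = 0.89). The mean signals of LRP3 and CENPU were below the background.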

How the results depend on the processing

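None of the counts of calls, nor of the 10 named genes that passed with a random block, reversed direction. Centring moved the list medians up, and many that lay just below 0 turned, as did TGFB2. Beside the amacrine and the GABA and glycine lists, these included BMP and TGF-beta (-0.04 to 0.01), synaptic vesicle (-0.02 to 0.03) and matrix genes (-0.03 to 0.02). The median over all genes tested also turned, from -0.01 to 0.05. Other single genes near 0 may turn likewise. In the paired fit limma called 3 probe sets for the shared effect, 0 at 6 h, 2 at 3 d and 0 for the difference between the times; without the replicate block the counts were 2, 0, 2 and 0. The counts of calls are small and moved with the settings. For the shared effect 11 were called with the chick as a random block (9 lower), 13 with a filter at the 50th percentile (8 lower), 17 with an offset of 64 (11 lower), 16 with trended and robust variances (9 lower), 5 with median centring (3 lower) and 8 with the brightest probe set per gene (5 lower). Some genes called there are not described above. PHLDA2 was higher by 0.53 with the stricter filter (limma adjusted p = 0.0377) and with trended variances (0.0135), and by 0.50 with the offset of 64 (0.0129). With that offset limma also called PPP3CA (0.41), COPS9 (0.60) and DIO2 (-0.34). At 6 h 1 was called with the offset of 64 and 1 with trended variances. At 3 d 4 were called with the random block, 4 with the stricter filter, 1 after quantile normalization, 1 with centring, and 0 without the chicks rich in choroid markers (2181 at an unadjusted p under 0.05). The cause was not tested.

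Of the directions, 24 probe sets lower and 29 higher in all chicks became 10 and 65 with centring, and 14 lower with the brightest probe sets only, which are fewer. They became 102 and 90 without both eyes of 6 h chick 5 and 3 d chicks 2 and 3, and 68 and 48 without both eyes of 6 h chicks 5 and 6, where fewer chicks had to share a direction. Leaving out 1 chick in turn gave 2 to 5 shared calls (5 without 6 h chick 1 or 3 d chick 1), 1 to 4 at 3 d (1 without 6 h chick 4 or 3 d chicks 4, 5 or 6, 4 without 3 d chick 1), 0 at 6 h and 0 for the difference. It gave 32 to 78 lower and 34 to 69 higher in every chick kept. Of those tested, 15.9% lay below the background on average, where small differences are not resolved.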
